A study of Mus musculus with 2 samples.

Results

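The 150 transcripts described here are the array probes whose signal was most strongly on the donor cell side in a comparison of 3T3-L1 adipocyte-derived microvesicles (ADMs) with the adipocytes that shed them. They were chosen by measured values. A probe was eligible if its signal was well above background in the cell-labelled RNA on both arrays and no outlier flag fell on its spot or local background, which 8780 probes met, out of 37976 without a flag and 41174 on the array. The net signal, the mean spot intensity minus the median local background with values under 5 set to 5, was divided, cell-labelled by ADM-labelled, and the smaller of the 2 arrays' ratios ranked the probes. The 150 highest form the set. Because this contrast chose them, the sizes of their ratios are a description and carry no test.

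3T3-L1 is a mouse fibroblast line that turns into fat cells in culture. Per the labels, differentiation in 10% serum used dexamethasone at 0.25 µM, IBMX at 0.5 mM and insulin at 10 µg/ml, and on day 11 the ADMs were collected from the medium by ultracentrifugation and Trizol RNA was prepared from ADMs and cells alike. From each RNA, 250 ng was labelled, with ADM-labelled RNA in Cy5 and cell-labelled RNA in Cy3 on replicate 1 and the dyes exchanged on replicate 2. There were 2 arrays in all, 1 per replicate, and the labels call them biological replicates. Both RNAs came from 1 cell line with the same treatment, and every direction below follows the dye labels: had the RNAs been interchanged, each would turn round.

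Microvesicles are membrane particles shed by cells, and adipocyte ones are known to carry RNA, including transcripts of adipocyte genes. An Agilent probe is a single oligonucleotide for 1 stretch of a transcript, so a probe reports on that stretch and on whatever binds it, and levels cannot be compared between probes. Gene names are those RefSeq gives to the probe's accession, where it holds it (58 of the 150 probes), and otherwise the name in the file (92 probes). Coordinates are those of the files (mouse build mm7); no exon annotation of that build was used here, so a probe's place in exon, intron or UTR is not given. Signal well above background, by the scanner's own call, is written as detected.

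The channel brightness sets the scale of the ratios. Over the 8780 eligible probes the median net signal was 2291 and 875 scanner units on replicates 1 and 2 for ADM-labelled RNA, against 40.8 and 110.1 in the cell-labelled RNA, and the median log2 ratio of ADM over cell was 5.87 and 3.01. Adipocyte markers lay on the ADM side with the rest: 0 of 17 eligible probes of an adipocyte list had more cell-labelled signal on both arrays, and none was a member. Fabp4, the fatty acid carrier of adipocytes, read 492342 and 239808 in the ADM-labelled RNA, against 1739 and 24498 in the cell-labelled RNA. Only 8.67% of the eligible probes (761 of 8780) had a higher net signal in the cell-labelled RNA on both arrays, whereas all 150 members did, as the rule requires.

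The members were dim for ADM-labelled RNA, and brighter than the median eligible probe for cell-labelled RNA. Their median net signal was 18.9 and 8.99 on replicates 1 and 2 for ADM-labelled RNA, against 198 and 634 in the cell-labelled RNA. ADM-labelled RNA was detected on both arrays for 31 members, on 1 array for 14 and on neither for 105, while it was detected on both for 90.1% of the eligible probes. The highest of 140 negative control spots read 18.1 and 11.4 in the ADM-labelled RNA, against 11.7 and 9.01 in the cell-labelled RNA. All 150 members exceeded the highest control in the cell-labelled RNA of both arrays, whereas 77 and 63 did so for ADM-labelled RNA on replicates 1 and 2. The share of eligible probes that were members grew with brightness: 0.377% of those with a cell-labelled net signal under 50 on replicate 1, 1.71% at 50 to 100, 4.19% at 100 to 1000 and 14.2% above; the floor limits the ratio a dim probe can reach.

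Replicate 1 gave the smaller ratio in 149 of 150 members, so it decided nearly every rank. The members' median log2 ratio of ADM over cell was -3.13 on replicate 1 and -5.70 on replicate 2, an offset close to that of the eligible probes (medians over probes of the difference between arrays, 2.42 and 2.86). With each array centred on the median of its eligible probes, the members' medians were -9.0 and -8.70, and the median SD between arrays was 0.45 (n = 2 arrays). The SDs of uncentred ratios given below carry the offset between the arrays. Cell-labelled log2 signals of the members correlated between arrays with Pearson's r = 0.959 and Spearman's rho = 0.954 over 150 probes, which share their sequences and spot design and are not independent replicates. At the end of the list, Cd70 and Defa3 at ranks 149 and 150 had smaller ratios (cell over ADM) of 5.36 and 5.309, and the first probes left out, Olfr821 and Adamts4, had 5.307 and 5.30, so no gap marks the edge.

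**Figure D1:**
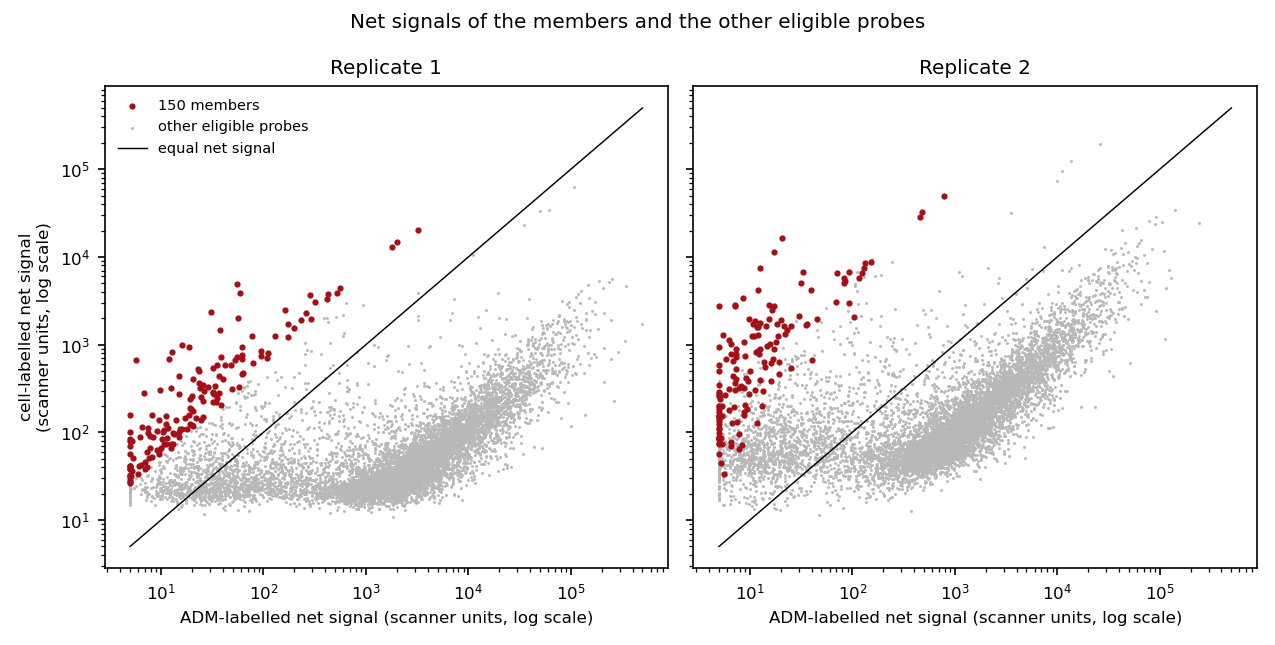
Net signal in the ADM-labelled RNA (horizontal) and the cell-labelled RNA (vertical) on log axes for replicates 1 and 2, with the 150 members in red and the other eligible probes in grey; values under 5 are drawn at 5. Most grey points lie below the line of equal signal, and the members lie above it on both arrays.

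**Figure D2:**
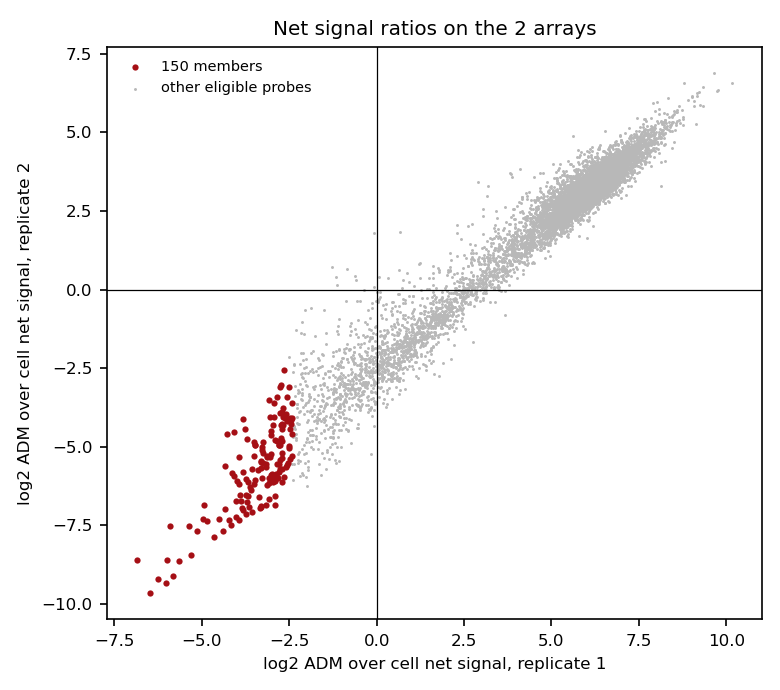
Log2 ratio of ADM-labelled over cell-labelled net signal on replicate 1 (horizontal) and replicate 2 (vertical), with members in red and other eligible probes in grey. The members centre on -3.13 on replicate 1 and -5.70 on replicate 2, and the grey points centre on 5.87 and 3.01.

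Transcription factors and gene regulators reached the upper ranks. At rank 2, Creb3l3, a membrane-bound transcription factor best known from liver (chr10:80876571-80876630, minus strand), had net signals of 55.3 and 20.5 on replicates 1 and 2 in the ADM-labelled RNA, against 4959 and 16547 in the cell-labelled RNA. Its log2 ratio of ADM over cell averaged -8.07 ± 2.24 (SD, n = 2 arrays). Sin3b, a scaffold of histone deacetylase complexes, had 12.6 and 5.48 in the ADM-labelled RNA, against 319 and 1274 in the cell-labelled RNA. The homeobox genes Evx2 and Hoxb6 read 25.9 and 12.5 in the ADM-labelled RNA, against 345 and 1775 in the cell-labelled RNA for Evx2, and 61.3 and 21.4 in the ADM-labelled RNA, against 763 and 1643 in the cell-labelled RNA for Hoxb6. Nr1i3, the xenobiotic receptor CAR, had 63.3 and 22 in the ADM-labelled RNA, against 472 and 1311 in the cell-labelled RNA. ADM-labelled RNA was detected for Creb3l3 on both arrays, but for Sin3b on neither.

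For the 105 members with no ADM-labelled RNA detected on either array, only an approximate lower bound of the difference can be given. The mean cell-labelled log2 net signal of the 2 arrays was set against the mean of, per array, the higher of the probe's own ADM-labelled net signal and the lowest detected one (26.6 on replicate 1 and 13.4 on replicate 2). Some undetected spots read above the lowest detected signal, such as 4930535E02Rik with 30.8 on replicate 1. The bounds therefore hold only for the limit taken and are not strict. On the net scale, with no normalization between dyes, these bounds ran from 1.73 to 205. The bound, cell-labelled over ADM-labelled, was 205-fold for 4930535E02Rik, an unclassified cDNA clone, and 95.1-fold for Syt6, a synaptotagmin of regulated membrane fusion. For Terc it was 50.1-fold and for Sin3b 33.7-fold. Loess and Aquantile normalization of the channels rescales them, and the same calculation then gave 737 for 4930535E02Rik, 269 for Syt6, 109.6 for Terc and 64.2 for Sin3b.

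Enzymes and regulators of phosphatases gave 15 members, with net signals of 3.02 to 3246 for ADM-labelled RNA on replicate 1 and 3.23 to 788 on replicate 2, against 35.8 to 20513 and 72.2 to 49034 in the cell-labelled RNA. Ppp1r14c, an inhibitor of protein phosphatase 1 (chr10:6881002-6881061, minus strand), read 59.4 and 17.3 in the ADM-labelled RNA, against 3898 and 11256 in the cell-labelled RNA. Duox2, an oxidase that makes hydrogen peroxide in thyroid and epithelia, had 37.5 and 12.1 in the ADM-labelled RNA, against 1475 and 4181 in the cell-labelled RNA. Both were far above the negative controls in the cell-labelled RNA, and ADM-labelled RNA was detected for each on replicate 1 only. Of 3 other Ppp1r14c probes, 1 lay on the ADM side of both arrays and 0 on the cell side. The one on the ADM side, 1160 bases from the member, read 1195 and 422 in the ADM-labelled RNA. In the cell-labelled RNA it read 25.2 and 56.1. Cpb2, a carboxypeptidase that liver releases into plasma, read 23.8 and 9.71 in the ADM-labelled RNA, against 501 and 1978 in the cell-labelled RNA. Mast4, a microtubule-associated kinase, gave 62.0 and 31.5 in the ADM-labelled RNA, against 948 and 5036 in the cell-labelled RNA. Mtm1, a phosphoinositide phosphatase mutated in centronuclear myopathy, had 41.9 and 12.1 in the ADM-labelled RNA, against 590.1 and 1577 in the cell-labelled RNA. Usp26, an X-linked deubiquitinase of testis, had 3.02 and 8.87 in the ADM-labelled RNA, against 84.7 and 203 in the cell-labelled RNA.

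Role groups were put together from the members' names only, so they have no share over the eligible probes, and 75 members are in none. Channels and surface receptors were the largest, with 16 members. Of these, 10 had no ADM-labelled RNA detected on either array, against 105 of all 150 members. Ptprz1, a receptor phosphatase of glia, had 6.85 and 3.46 in the ADM-labelled RNA, against 282 and 928 in the cell-labelled RNA. Lgr4, a receptor for R-spondins, read 38.3 and 17.2 in the ADM-labelled RNA, against 716 and 2748 in the cell-labelled RNA. Both lay within the upper 21 ranks, Ptprz1 at 9 and Lgr4 at 21. Cd209g, a C-type lectin, gave 6.24 and 7.56 in the ADM-labelled RNA, against 88.8 and 130.3 in the cell-labelled RNA. Clcn1, the chloride channel of skeletal muscle, had 19.1 and 6.85 in the ADM-labelled RNA, against 243 and 643 in the cell-labelled RNA, and Kcna7, a voltage-gated potassium channel, 36.8 and 11.8 in the ADM-labelled RNA, against 438 and 1598 in the cell-labelled RNA. Of channel probes matched by a pattern of gene symbols, which leaves out some such as Chrna9, 27 of 258 unflagged ones were eligible. Among all unflagged probes 23.1% were. Of these 27, 2 were members and 13 had more cell-labelled signal on both arrays, next to 1.71% and 8.67% of all eligible probes. Eligibility asked for signal in the cell-labelled RNA only, so these shares are not read as enrichment. Chrna9, a subunit of the nicotinic receptor of hair cells, read 9.15 and 0.683 in the ADM-labelled RNA, against 103 and 154 in the cell-labelled RNA.

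Muscle and motor proteins gave 9 members. Trim55, a ubiquitin ligase of the sarcomere (chr3:19376501-19376560, plus strand), had 2007 and 476 in the ADM-labelled RNA, against 14982 and 32717 in the cell-labelled RNA. Myom3, a protein of the sarcomere's M-band, read 286 and 82.1 in the ADM-labelled RNA, against 3669 and 5759 in the cell-labelled RNA, and Myo1e, an unconventional myosin, 560.4 and 152 in the ADM-labelled RNA, against 4461 and 8869.9 in the cell-labelled RNA. All 3 were detected for both RNAs on both arrays, and their log2 ratios of ADM over cell averaged -4.50 ± 2.26, -4.91 ± 1.73 and -4.43 ± 2.03 (SD, n = 2). Kif12, a kinesin, gave 12 and 4.85 in the ADM-labelled RNA, against 678 and 2769 in the cell-labelled RNA. Of 26 eligible probes of kinesins and unconventional myosins, matched by gene symbol, 4 were members, against 1.71% of all eligible probes. Of the 26, 7 lay on the cell side of both arrays, next to 8.67% of all eligible probes, and the median log2 ratio of all 26 was 3.71. Since eligibility asked for signal in the cell-labelled RNA only, these shares are not read as enrichment. Of the muscle list, 5 of 59 unflagged probes were eligible, against 23.1% of all unflagged probes, and besides Trim55 and Myom3 these were 2 probes of the giant sarcomere protein Ttn and 1 of the troponin Tnnc2. Of these 5, 4 had more cell-labelled signal on both arrays, Trim55 and Myom3 among them, next to 8.67% of all eligible probes. Eligibility asked for signal in the cell-labelled RNA only, and the list was drawn up with earlier results known. This share is therefore not read as enrichment. Tnnc2 lay on the other side, with 978 and 374 in the ADM-labelled RNA, against 34.9 and 95.2 in the cell-labelled RNA.

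Markers of other tissues gave a few members each, where 23.1% of all unflagged probes were eligible and 1.71% of the eligible ones were members. Of the hepatocyte list, 5 of 28 unflagged probes were eligible, and the 2 on the cell side of both arrays, Creb3l3 and Cpb2, were members. The other 3, the liver enzymes Tat and G6pc and the liver regulator Hnf4a, had log2 ratios of ADM over cell of 0.17, 0.85 and 0.59 on replicate 1 and -2.29, -1.32 and -0.67 on replicate 2. Of the testis list, 3 of 23 were eligible and 2 of these on the cell side of both arrays, and its member was Ddx25, an RNA helicase of male germ cells (chr9:35436752-35436811, minus strand), with 1797 and 462 in the ADM-labelled RNA, against 13052 and 28868 in the cell-labelled RNA. The neuron list, with 5 eligible of 37 and 2 of these on the cell side of both arrays, gave 1 member, Syt6, with 18.7 and 8.62 in the ADM-labelled RNA, against 939 and 3444 in the cell-labelled RNA. Syn1, a synapsin of nerve endings on the same list, lay on the ADM side, with 18140 and 8719.8 in the ADM-labelled RNA, against 605 and 2249 in the cell-labelled RNA. The epithelium list, with 4 eligible of 13 and 2 of these on the cell side, gave Cdcp1, a transmembrane glycoprotein, with 426 and 117 in the ADM-labelled RNA, against 3810.1 and 5821 in the cell-labelled RNA. No member came from the preadipocyte, macrophage, endothelium or red blood cell lists, whose eligible probes numbered 10, 5, 1 and 2. Histones and ribosomal proteins gave none of 35 and 89 eligible probes, and collagens and solute carriers none of 29 and 90. These lists were drawn up with earlier results of these data known, so their counts are no independent evidence of a tissue.

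**Figure D3:**
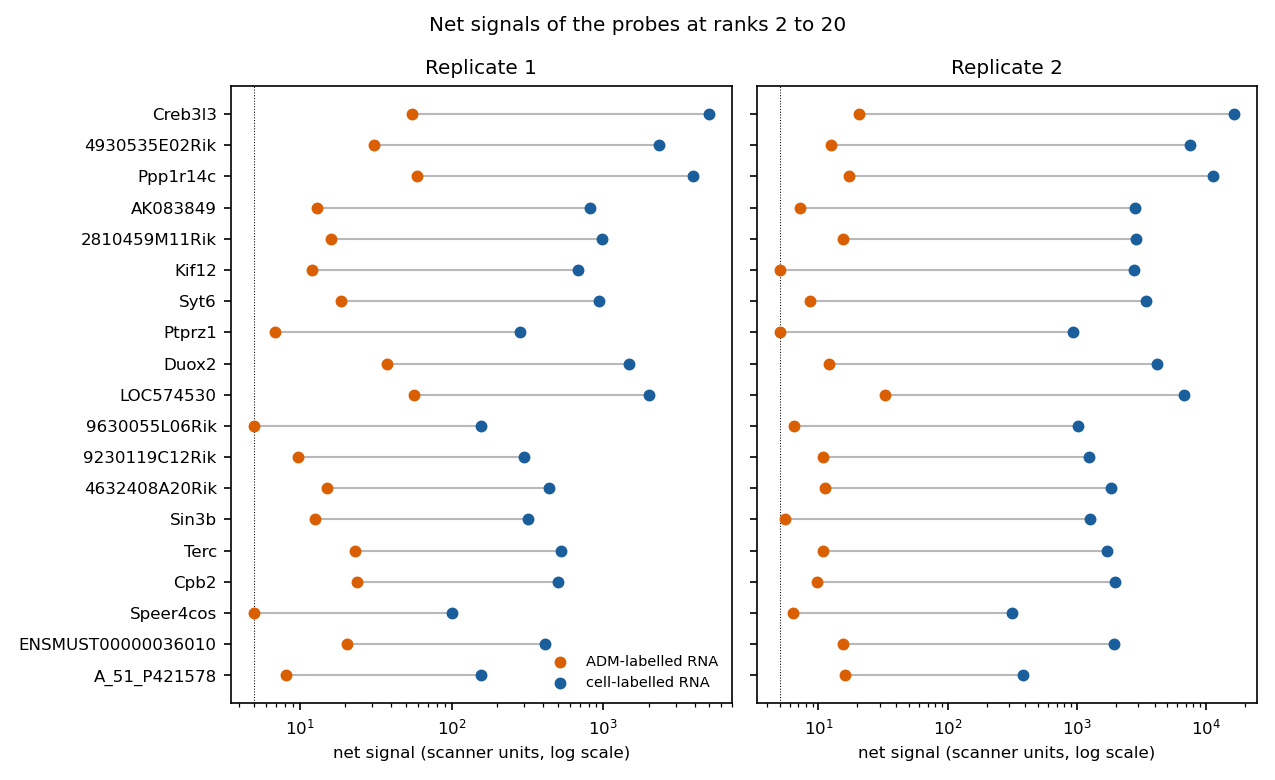
Net signal (log axis, scanner units) of the probes at ranks 2 to 20 on replicates 1 and 2, with ADM-labelled RNA in orange and cell-labelled RNA in blue; the dotted line marks the floor of 5. In every row the blue point lies right of the orange one, and Creb3l3 reaches 16547 in the cell-labelled RNA of replicate 2.

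Secreted signals, vesicle proteins and RNA genes had few members. Ccl19, a chemokine that draws T cells and dendritic cells, read 61.7 and 20.2 in the ADM-labelled RNA, against 463 and 1935 in the cell-labelled RNA. Thpo, the hormone of platelet production, had 38.3 and 19.2 in the ADM-labelled RNA, against 206 and 465 in the cell-labelled RNA, and Tnfsf13b, the B-cell survival factor BAFF, 6.11 and 2.98 in the ADM-labelled RNA, against 41.1 and 153 in the cell-labelled RNA. ADM-labelled RNA was detected on both arrays for Ccl19, on replicate 1 only for Thpo and on neither for Tnfsf13b. Rph3al, an effector of Rab proteins in secretion, gave 11.2 and 13.6 in the ADM-labelled RNA, against 153 and 294 in the cell-labelled RNA. Terc, the template RNA of telomerase (chr3:96288724-96288783, minus strand), was the only member among 7 eligible probes of a non-coding RNA list, with 23.1 and 10.8 in the ADM-labelled RNA, against 524 and 1712 in the cell-labelled RNA. On the same list Rmrp, the RNA of the MRP ribonuclease, read 1434 and 523 in the ADM-labelled RNA, against 154 and 445 in the cell-labelled RNA. A probe the file describes as a metallothionein, LOC574530, had 56.2 and 32.9 in the ADM-labelled RNA, against 1995 and 6796 in the cell-labelled RNA.

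In 23 members the cell-labelled net signal exceeded 1000 on both arrays, out of 162 such eligible probes. Their ADM-labelled signal was 1.12 to 15.8% of the cell-labelled signal on replicate 1 and 0.124 to 5.09% on replicate 2. Within these, 15 lay between 10 and 16% on replicate 1, a range set after their values were seen, and spanned 1.36 to 5.09% on replicate 2, with medians of 12.7 and 1.66%. Their cell-labelled signals on replicate 1 ranged from 1223 to 20513. The rule itself caps the share on either array, since a member needs a cell-over-ADM ratio of at least 5.31 on both. Pdpk1, the kinase that activates Akt downstream of insulin (chr17:22287682-22287741, minus strand), had 3246 and 788 in the ADM-labelled RNA, against 20513 and 49034 in the cell-labelled RNA. Mid1, a microtubule-bound ubiquitin ligase chosen for mention after its values were seen, read 288 and 125 in the ADM-labelled RNA, against 1967 and 6620 in the cell-labelled RNA. Creb3l3 and Ppp1r14c, also bright, stood apart from that band, at 1.12 and 1.52% on replicate 1.

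Keratins and the proteins of the hair fibre gave several members. Of 22 eligible keratin and keratin-associated probes, 7 were members and 12 had more cell-labelled signal on both arrays. Among all eligible probes these shares were 1.71% and 8.67%. Since eligibility asked for signal in the cell-labelled RNA only, the keratin shares are not read as enrichment. Keratin-associated proteins fill the matrix of the hair fibre, and 6 of the 7 keratin members lie within chr16:88919113-89453653. The RefSeq promoters of 4 of these genes are shown because these neighbouring genes hold 5 of the 7 keratin members; Krtap6-3 has no promoter in the table. Each line gives the 100 bases before the annotated start (GRCm38.p6), with TATAAA in capitals.
Krtap16-3: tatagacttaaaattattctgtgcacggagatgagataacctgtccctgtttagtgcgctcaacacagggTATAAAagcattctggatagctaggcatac
Krtap6-1: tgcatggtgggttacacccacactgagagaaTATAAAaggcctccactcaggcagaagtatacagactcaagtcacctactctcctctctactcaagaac
Krtap21-1: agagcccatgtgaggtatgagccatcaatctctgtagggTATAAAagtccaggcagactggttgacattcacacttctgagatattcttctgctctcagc
Krtap19-1: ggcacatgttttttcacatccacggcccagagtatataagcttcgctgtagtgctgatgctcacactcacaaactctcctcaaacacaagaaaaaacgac

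These windows are chr16:88962874-88962973, minus strand, for Krtap16-3, chr16:89031599-89031698, plus strand, for Krtap6-1, chr16:89403775-89403874, minus strand, for Krtap21-1, and chr16:88869411-88869510, minus strand, for Krtap19-1. TATAAA begins 30 bases before the start in Krtap16-3, 69 in Krtap6-1 and 61 in Krtap21-1, and these letters are not in the Krtap19-1 window. On both strands of the same 100 bases, TATAAA occurs in 5 of the 49 members' genes with a promoter in the table, 10.2%, against 3.91% of the eligible genes and 6.57% of all genes in the table. Between 15 and 45 bases before the start it occurs in 1 of the 49 (2.04%), against 1.75% of the eligible genes and 2.57% of all. A match describes the letters only.

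Krtap6-3 had 108 and 30.1 in the ADM-labelled RNA, against 704 and 2101 in the cell-labelled RNA. Krtap6-1 had 2 member probes, of which the one at chr16:89081790-89081861, plus strand read 24.7 and 7.38 in the ADM-labelled RNA, against 255 and 719.5 in the cell-labelled RNA, and the one at chr16:89065411-89065470, plus strand read 20.4 and 12.5 in the ADM-labelled RNA, against 117 and 394 in the cell-labelled RNA. These 2 lie far apart under 1 name in a family of similar genes, so which gene each binds is uncertain. A further Krtap6-1 probe, 193 bases from the nearest member read 19.9 and 10.1 in the ADM-labelled RNA, against 13.4 and 14.3 in the cell-labelled RNA, and was detected for neither. Krtap16-3, named Krtap16-10 in the file, had 24.4 and 8.14 in the ADM-labelled RNA, against 137 and 339 in the cell-labelled RNA. Krtap21-1, named Krtap16-7 in the file, gave 7.79 and 0.30 in the ADM-labelled RNA, against 92.0 and 260.2 in the cell-labelled RNA. For Krtap19-1, named Krtap16-9 in the file, the member probe at chr16:88919113-88919172, minus strand had 2.28 and -3.48 in the ADM-labelled RNA, against 32.6 and 74.3 in the cell-labelled RNA. The other probe of that gene starts 47 bases away, overlaps only a part of it, and read 2081 and 858 in the ADM-labelled RNA, against 116 and 339.6 in the cell-labelled RNA. So 2 partly overlapping probes of Krtap19-1 lay on opposite sides, with the member's ADM-labelled signal under the floor on both arrays. Outside chromosome 16, the member Krt2, a keratin of skin, had 52.9 and 10.4 in the ADM-labelled RNA, against 663 and 1254 in the cell-labelled RNA.

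**Figure D4:**
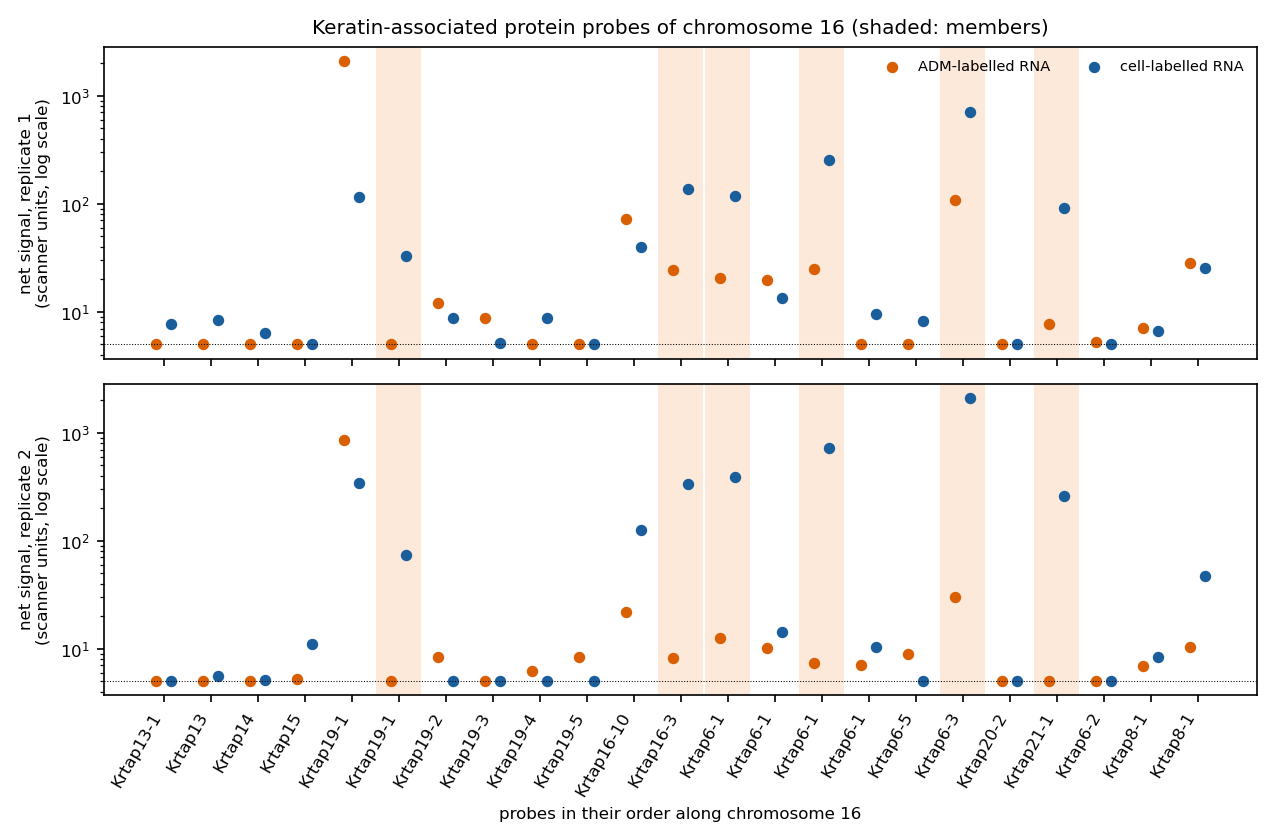
Net signal (log axis, scanner units) of the keratin-associated probes of chromosome 16 in their order along it, with ADM-labelled RNA in orange left of cell-labelled RNA in blue, replicate 1 above replicate 2; members are shaded and the dotted line marks the floor of 5. Probes at or near the floor lie between the shaded members, and the unshaded Krtap19-1 probe reaches 2081 for ADM-labelled RNA on replicate 1.

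Some members also lay near each other elsewhere. With a gap of up to 1 Mb between starts, 32 members formed 11 groups. These include the 2 member probes of NM_001013789 and a pair on sequence not placed on a chromosome, where distance has little meaning. No such count was made for other eligible probes, so the groups are not read as clustering. The group with the most members held 8 immunoglobulin heavy chain or neighbouring probes within chr12:112267817-113737877. These genes encode the variable parts of antibodies and are close in sequence, so a probe may bind several. All 8 read 32.1 to 73.7 for cell-labelled RNA on replicate 1, for example LOC380824, with 9.65 and 8.71 in the ADM-labelled RNA, against 61.5 and 172 in the cell-labelled RNA. In this stretch 21 of 22 eligible probes had more cell-labelled signal on both arrays, next to 8.67% of all eligible probes. The 8 members set its bounds and are among the 22, and eligibility asked for cell-labelled signal only. This share is therefore not read as enrichment. Of olfactory and vomeronasal receptor probes, matched by name, 80 of 1008 unflagged ones were eligible, against 23.1% of all unflagged probes. Of these 80, 6 were members, all of them olfactory (odorant) receptors, and 42 lay on the cell side of both arrays. Among all eligible probes these shares were 1.71% and 8.67%. Eligibility asked for signal in the cell-labelled RNA only, so these shares are not read as enrichment. Among the members, Olfr744 had 110.0 and 36.4 in the ADM-labelled RNA, against 796 and 1705 in the cell-labelled RNA.

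Other probes of the members' genes were matched by the file's gene name. Among the 106 other unflagged probes of 60 member names, 19 (17.9%) had more cell-labelled signal on both arrays, 55 had more ADM-labelled signal on both and 32 differed between arrays or were equal; with median centring 92 were on the cell side. For all 37976 unflagged probes the share, uncentred, was 8.62%. Of the 106, 49 were detected for neither RNA on either array, so many of these calls rest on signals near the floor, and 42 were detected for ADM-labelled RNA on both arrays. Their median log2 ratio was 0.70, which turned to -3.74 with median centring and -0.052 with loess, against -4.34 for the member probes of the same names. For 37 of the 60 names, the cell-labelled signal of every other probe lay far below the member's on both arrays. None of the 106 had a ratio below that of its member. Since the members were the extreme probes, a lesser ratio elsewhere follows in part from the choice.

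For Sin3b, the probe 16749 bases from the member was bright, with 39223 and 14799 in the ADM-labelled RNA, against 649 and 2428 in the cell-labelled RNA. For Pdpk1, a probe whose start lies 405 bases from the member's read 276 and 116 in the ADM-labelled RNA, against 5.03 and 7.93 in the cell-labelled RNA, so it lay on the ADM side while the member lay on the cell side. For Lgr4, the probe most on the ADM side had 1115 and 421 in the ADM-labelled RNA, against 7.50 and 7.92 in the cell-labelled RNA. Ddx25's other probe was detected for neither RNA, with 3.58 and 4.88 in the ADM-labelled RNA, against 5.53 and 8.39 in the cell-labelled RNA. Kifc5c, a kinesin, was among the few that went along, its other probe reading 31.5 and 13.4 in the ADM-labelled RNA, against 128 and 382 in the cell-labelled RNA. The same held for TC1519880, a transcript with no gene name, with 20.2 and 5.56 in the ADM-labelled RNA, against 63.4 and 160.1 in the cell-labelled RNA. Of the 25 other probes detected for cell-labelled RNA on both arrays, 9 lay on the cell side, next to 8.67% of all eligible probes. They came from 6 names, listed after their values were seen: Igh-VJ558, Kifc5c, LOC380824, NM_001013789, Speer4cos and TC1519880. Igh-VJ558 alone gave 4 of them.

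Strand differed for some of these probes. Of 104 other probes with a strand in the file, 14 ran opposite to the member probe, from 6 names, and for 4 names, among them 6330412F12Rik, Cpb2 and Rpgrip1, every other probe did. For 6330412F12Rik these other probes carry the RefSeq name Nub1, and the Cpb2 member lies on its gene's own strand. Of 48 members with probe and RefSeq gene strand known, 95.8% lay on the gene's own strand, against 99.1% of such eligible probes. The members on the opposite strand were Ppp1r14c and Ccl19, and every other probe of these names ran on its member's strand. Probe strands are those of mm7 and gene strands those of GRCm38.p6. Whether the 2 builds orient these sites alike was not tested. Which strand the labelled RNA came from at the member sites was not tested.

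**Figure D5:**
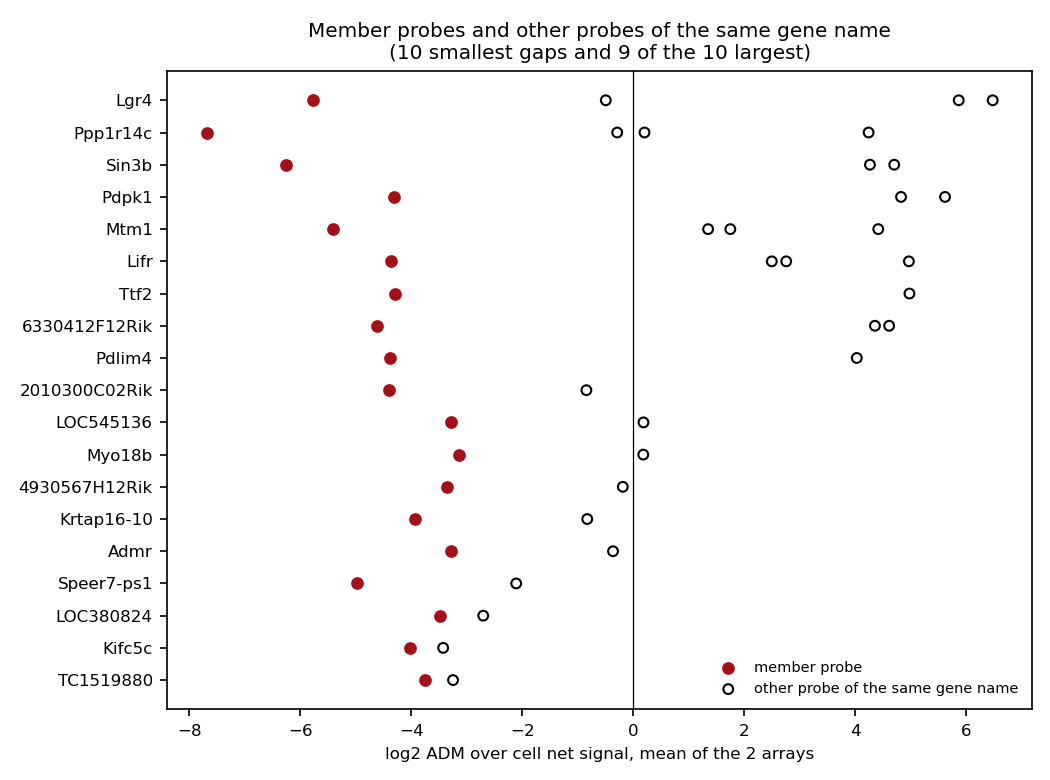
Mean log2 ratio of ADM-labelled over cell-labelled net signal (2 arrays) for member probes (filled) and other probes of the same gene name (open), for the 10 names with the smallest gap to the member and 9 of the 10 with the largest. In TC1519880, at the bottom, the points lie 0.51 apart, and in Lgr4, at the top, up to 12.25.

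The members' annotation differed from that of the eligible probes. Curated RefSeq accessions named 63 members (42%), against 76.8% of the eligible probes, and cDNA clones of the AK series 22.7%, against 7.93%. Over all unflagged probes the shares were 57.7% and 26.5%. Promoter windows of 300 bases were matched for 49 of 58 members' genes with a RefSeq entry. Their median GC content was 54.7%, against 60.7% for the eligible genes and 52.75% over all genes in the promoter table. The ratio of observed to expected CpG had a median of 0.390 in the members' promoters, against 0.762 in those of the eligible genes and 0.390 over the whole table. These values carry no test.

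After background correction and loess normalization, limma's moderated test with Benjamini-Hochberg adjustment (threshold 0.05) over all 18117 probes called 143 of the 150 members lower in the ADM-labelled RNA, where 10.9% of the probes tested (1971) were called lower and 1001 higher; with median centring in place of loess 265 were lower and 10773 higher. Nothing is read from this count, since the rule used the same contrast. The normalized log2 ratios of the members ran from -10.82 to -0.84, and the 7 not called, among them Ero1lb, Tnfsf13b and Defa3, had adjusted p up to 0.0730 in limma. Keeping spots with outlying local backgrounds left 0 members called by limma, and 0 of all probes, with 31 members at an unadjusted p under 0.05.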

How the data were processed

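The deposited scanner files hold spot and local background intensity in scanner units, extracted with Feature Extraction 10.5.1.1 per the file headers, with flags for outliers, saturation and signal well above background. The log10 ratios deposited by the authors in the scanner files and series table come from dye-normalized processed signals per the file headers; the series table's columns equalled the scanner's ratio on replicate 1 and its negative on replicate 2, for 100 and 100% of spots (within 0.0001). Other steps of the authors are not given in the sources used here. Net signal, floor and ranking were computed in Python 3.11.15. For the test, normexp (offset 50) and loess in limma 3.58.1 (R 4.3.3) preceded lmFit and eBayes over 18117 probes detected for either RNA on both arrays, with 1 residual degree of freedom per probe. Probes' accessions were named through RefSeq's gene table (assembly GRCm38.p6, 23082 of 41174 probes), which also gave the promoters. Spots of a probe were averaged, control spots were left out of the tests, and spots with any outlier flag of spot or local background (2322 on replicate 1, 1711 on replicate 2) were dropped. Ranking and testing were tested on simulated data. The 2 arrays limit the precision. Members, gene lists and role groups were chosen with earlier results of these data known. Apart from Mid1 and the names said to be listed after their values were seen, genes were named from these: the 30 highest-ranked members with a gene name, list members, names with 2 member probes, the edges of the list, names whose other probes differ most or least, and the 6 highest ranked of each role. 1 member is counted but not reported here.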

Additional observations from a re-analysis of the deposited data

How the results depend on the processing

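The members' median log2 ratio of ADM over cell, -4.40, was -9.01 from the scanner's processed signals and -8.83 with median centring; floors of 1 and 20 and loess moved it by less than the SD between arrays, and leaving out 1 array gave -5.70 to -3.13. For the other probes of the members' genes, the median of 0.70 was 0.033 with a floor of 20 and 0.10 from processed signals, and turned to -3.74 with median centring and -0.052 with loess (without 1 array, 0.45 to 1.14). Their count on the cell side of both arrays, 19, was 8 with a floor of 20 and 92 with median centring, alternatives added after seeing the data. Of the 150 members, 75 stayed among the top 150 when ranked by loess ratios and 31 when signal well above background was also asked of the ADM channel, as that drops the other members by construction; other settings kept 110 to 137, and leaving out 1 array kept 108 to 149. Of limma's 143 members, 0 were called with outlying local backgrounds kept (31 unadjusted), the cause was not tested, and the other 6 settings called 128 to 150. Over all probes limma called 1971 lower and 1001 higher, against 265 and 10773 with median centring, 2574 and 5798 from processed signals, 3063 and 1867 with an offset of 10, 2455 and 1711 with a trend, and 0 and 0 with outlying local backgrounds kept (677 at an unadjusted p under 0.05). Except where a construction is named, the causes of these moves were not tested. The ratio within each array already pairs the 2 RNAs, so the limma test is the paired one and no unpaired fit was made. GC content of the probes was not run, as their sequences were not used here. Dim signal limits the set: 105 members had no ADM-labelled signal well above background.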
